A study of Mus musculus with 12 samples.

Results

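Aire, the autoimmune regulator of the thymic medulla, was examined together with 8 genes tied to it: Fezf2, a second regulator of self-antigen expression, the nuclear partners Hipk2, Sirt1, Top2b, Chd4 and Prkdc, and the medullary surface markers Cd80 and Cd86. The members came as a list of names, and each was read from the probe set that carried its symbol alone and had the highest mean intensity over all arrays. All 9 were found, of 19938 genes with such a probe set and 35556 probe sets in all. Cd80 had 2 such probe sets and every other member had 1.

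The study collected thymic epithelium/stroma from day 7 pups of FCG mice, whose genotypes separate gonads from sex chromosomes, on a C57BL/6J background and hybridised it to 12 Affymetrix mouse Gene 1.0 ST arrays. In FCG mice the testis-determining gene Sry is absent from the Y chromosome and is carried, where present, by an autosomal transgene. The groups were 3 arrays of XXF (XX, no Sry, ovaries), 3 of XYF (Y lacking Sry, ovaries), 4 of XXM (XX with the Sry transgene, testes) and 2 of XYM (Y lacking Sry, with the transgene, testes), and the labels name no treatment. Comparison of XY with XX genotypes asks about chromosomal complement, and comparison of males with females asks about gonadal sex.

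Medullary thymic epithelial cells display proteins of other organs so that developing T cells that bind them can be deleted or diverted into regulatory T cells. Aire opens many of these genes by releasing stalled transcription, and it does so in a large assembly with topoisomerase, DNA repair and chromatin remodelling proteins. Fezf2 drives a largely separate set of antigens, and signals through RANK, CD40 and the lymphotoxin receptor, acting through NF-kappaB, mature the cells that express Aire.

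The RefSeq promoter table (GRCm38.p6) held 7 of the 9 members; Cd86 and Prkdc were not in it. The 250 bases before the start of Aire, Fezf2 and Cd80 are shown because, of the members in the table, Fezf2 and Cd80 had the highest correlations with Aire over the arrays. Each reads 5′ to 3′ toward the start, and capitals mark every match, on either strand, to the TATA box TATAAA, to the CCAAT box, to the GC box GGGCGG or to the 10-base NF-kappaB motif.
Aire (chr10:78043611-78043860, strand -): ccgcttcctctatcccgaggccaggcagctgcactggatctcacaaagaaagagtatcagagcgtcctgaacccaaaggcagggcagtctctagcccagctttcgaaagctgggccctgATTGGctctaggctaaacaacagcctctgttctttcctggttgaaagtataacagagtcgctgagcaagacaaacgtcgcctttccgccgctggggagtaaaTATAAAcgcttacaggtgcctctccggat
Fezf2 (chr14:12345866-12346115, strand -): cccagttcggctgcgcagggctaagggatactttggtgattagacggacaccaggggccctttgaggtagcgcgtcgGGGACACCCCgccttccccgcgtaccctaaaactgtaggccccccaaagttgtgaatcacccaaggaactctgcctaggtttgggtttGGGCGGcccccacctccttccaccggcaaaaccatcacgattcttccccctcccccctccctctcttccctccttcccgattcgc
Cd80 (chr16:38458683-38458932, strand +): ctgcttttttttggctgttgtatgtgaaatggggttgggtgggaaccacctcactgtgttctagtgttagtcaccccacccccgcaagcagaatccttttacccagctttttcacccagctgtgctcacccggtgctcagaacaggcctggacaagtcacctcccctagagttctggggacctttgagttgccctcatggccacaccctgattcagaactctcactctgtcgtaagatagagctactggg
The Aire window held 1 TATA box, ending 23 bases before the start, and 1 CCAAT box on the opposite strand. The TATA box occurred in 12.4% of the 32851 promoters of this length and the CCAAT box in 33.8%. The Fezf2 window held 1 GC box, found in 32.7% of promoters, and 1 NF-kappaB match, found in 7.25%, and these did not overlap. None of the 4 motifs was matched in the Cd80 window. These are letter matches, and no binding was measured here.

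The arrays were checked before the members were read. Xist ran from 8505 to 9884 on XX arrays and from 40.0 to 79.9 on XY arrays, and Sry from 2524 to 2836 in males and from 416 to 565 in females, so every array fitted its label. Array medians ran from 328 to 346. The defining thymocyte genes Cd3e and Rag1 had mean intensities of 4209 and 5298, so the tissue was not epithelium alone. Olfactory receptor genes served as a gauge of background, and the 95th percentile over their 1035 probe sets was 309.5. Of the medullary markers 11 of 14 had a mean above it, and all 10 cortical markers did. Every member lay above it on all 12 arrays except Cd86, which did so on 10. Whether each array held the tissue of its own pup is not given in the sources used here, and the p-values therefore reflect only how far these arrays differ among themselves, which may be technical.

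Aire, the transcriptional regulator itself, measured 1078, 924 and 1057 on the 3 XXF arrays and 1329.6, 1009 and 1201 on the 3 XYF arrays. On the 4 XXM arrays it measured 978, 988, 868 and 1070.5, and on the 2 XYM arrays 1284 and 1178. Thus 4 of the 5 XY arrays exceeded the highest XX array, and the fifth, an XYF array, lay within the XX range. Means were 1231 ± 75.3 in XYM (SD, n = 2), 1180.0 ± 161 in XYF (n = 3), 1020 ± 83.7 in XXF (n = 3) and 976 ± 83.4 in XXM (n = 4). In that order no step between neighbors exceeded the larger of their SDs.

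For Aire the XY minus XX log2 difference was 0.27 (SE 0.09, 95% interval 0.08 to 0.46), or 1.21-fold (limma adjusted p = 1.00 over all probe sets). The exact two-sided permutation test over 792 groupings of the arrays gave p = 0.00758. The difference therefore passed the test of a single gene but not the correction for 35556 probe sets, among which Aire ranked 127th by p. The members were chosen with earlier results of these data known, so the single-gene p is not that of a gene fixed beforehand. Arrays are numbered 1 to 12 in the labels, and each consecutive 4 held XX and XY of both gonads except that arrays 5 to 8 held no XYM. Within these sets of 4 the XY minus XX difference of Aire was 0.35, 0.13 and 0.16. In a bulk sample, more Aire-expressing cells and more Aire RNA per cell cannot be told apart.

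**Figure D1:**
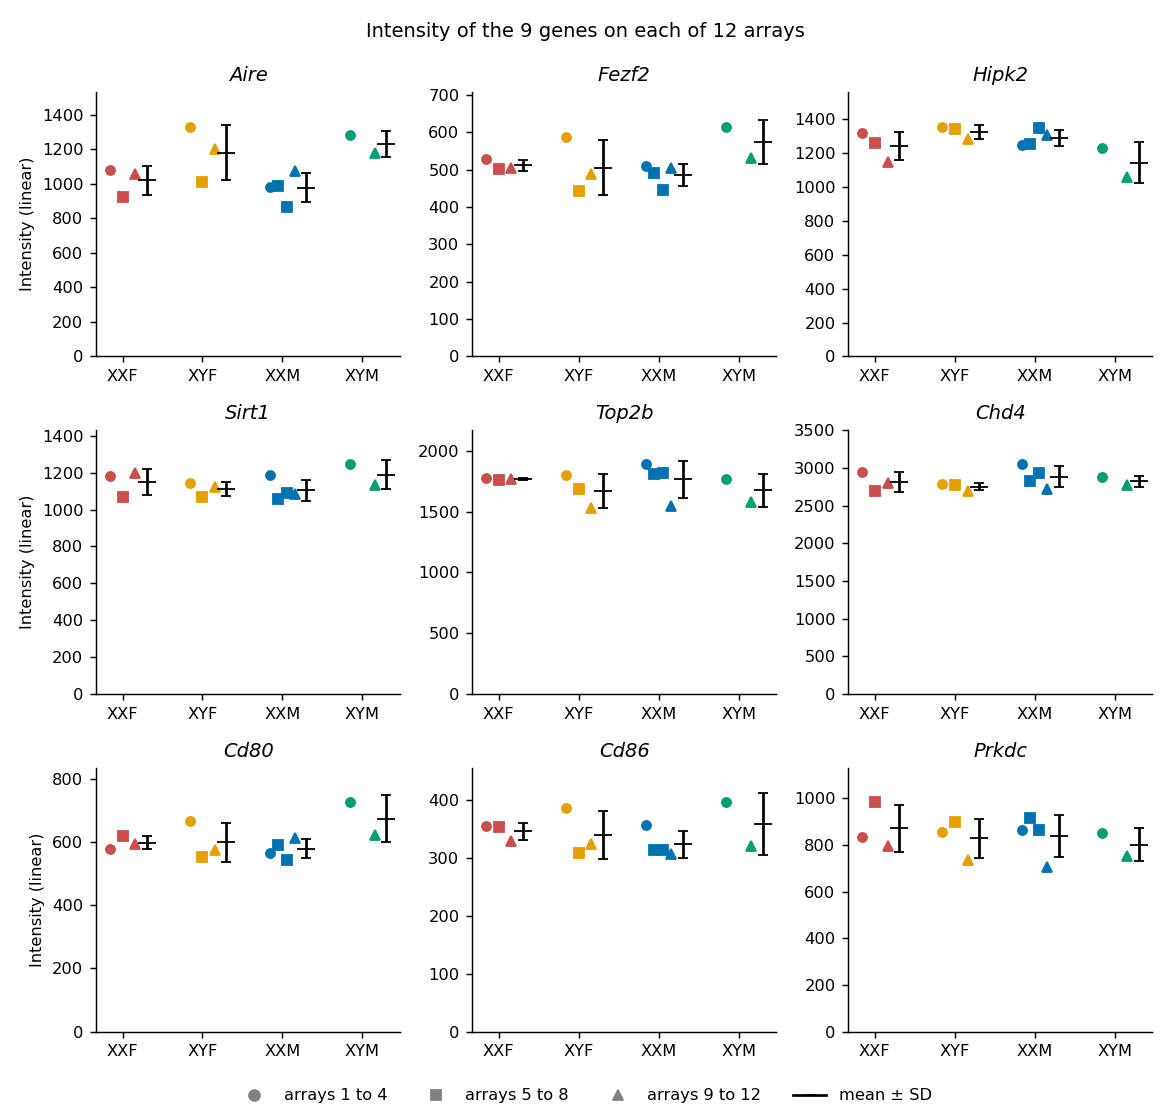
Linear intensity (vertical axes, from 0) of the 9 members on each array, by genotype; symbols mark the array set and bars the mean ± SD of each genotype (n = 3, 3, 4 and 2). For Aire 4 of the 5 XY arrays sit above every XX array, and for Fezf2 and Cd80 3 of 5 do. Prkdc on arrays 9 to 12 (triangles) lies below all other arrays.

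Gonadal sex gave no such separation for Aire. Males ran from 868 to 1284 with a median of 1029, and females from 924 to 1329.6 with a median of 1068. The male minus female log2 difference was 0.00 (95% interval -0.18 to 0.19, limma adjusted p = 1.00). The plain difference of means, which does not balance the chromosomes, was -0.05 (exact permutation p = 0.636 over 924 groupings). Among gonadal males XYM exceeded XXM by 0.34 in log2 (95% interval 0.07 to 0.61, limma adjusted p = 0.977), with both XYM arrays above all 4 XXM arrays. Without XYM array 1 it was 0.27. Among gonadal females XYF minus XXF was 0.20 (-0.05 to 0.46, limma adjusted p = 1.00), and the ranges overlapped. It was 0.11 without XYF array 4, 0.14 without XXF array 7 and 0.31 without XYF array 8. The interaction, which asks whether these 2 differences are unequal, was 0.13 (-0.24 to 0.51, limma adjusted p = 1.00).

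Fezf2, the zinc finger regulator of Aire-independent antigens, measured 529.9 on XXF array 3, 502 on array 7 and 504.4 on array 11. The XYF arrays gave 587, 442 and 489, the XXM arrays 509, 490.3, 445 and 504.7, and the XYM arrays 616 and 533. Of the 5 XY arrays 3 exceeded the highest XX array. Its highest values were on an XYM and an XYF array and its lowest was on another XYF array, so the XY arrays spanned the XX range on both sides. The XY minus XX log2 difference was 0.10 (-0.07 to 0.28, limma adjusted p = 1.00), against a plain difference of means of 0.09 (exact permutation p = 0.275). The fitted difference was 0.05 without XYF array 4 and 0.05 without XYM array 1. Male minus female was 0.06 (-0.12 to 0.23, limma adjusted p = 0.985). Both XYM arrays exceeded all XXM and XXF arrays, and the XYM minus XXM difference was 0.24 (-0.02 to 0.49, limma adjusted p = 0.977).

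Cd80 encodes a ligand of CD28 and CTLA-4 and is a surface marker of mature medullary epithelium and of antigen-presenting cells. It measured 579, 619 and 594 in XXF, 667, 553 and 575 in XYF, 566, 590.1, 543 and 613 in XXM, and 726 and 621 in XYM. As for Fezf2, 3 of the 5 XY arrays exceeded the highest XX array. XYM array 1 and XYF array 4 were again the highest, and the other XYF arrays lay inside the XX range. XY minus XX was 0.11 in log2 (-0.04 to 0.26, limma adjusted p = 1.00), against a plain difference of means of 0.09 (exact permutation p = 0.187). The fitted difference was 0.07 without XYF array 4 and 0.05 without XYM array 1. The difference XYM minus XXM was 0.22 (-0.00461 to 0.44, limma adjusted p = 0.977). A dimmer second probe set of Cd80 (mean 395 ± 29.2, n = 12) gave an XY minus XX difference of 0.06 (limma adjusted p = 1.00) and a male minus female difference of -0.06, against 0.06 for the probe set used.

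Cd86, the companion ligand of CD28, lay closest to background, from 307 to 396 over the 12 arrays. Its 2 highest arrays were again XYM array 1 at 396 and XYF array 4 at 386, whereas the other XYF arrays read 307 and 324 and the other XYM array 321. Its XY minus XX log2 difference was 0.06 (-0.12 to 0.23) and male minus female -0.01 (-0.19 to 0.17), with limma adjusted p of 1.00 and 0.995.

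The nuclear partners spread less over the arrays than Aire did, with a coefficient of variation from 3.87% for Chd4 to 9.53% for Prkdc against 13.2%. So did Fezf2 at 9.80%, Cd86 at 9.02% and Cd80 at 8.50%. Hipk2, a kinase that phosphorylates Aire, measured 1319.6, 1257 and 1151 in XXF, 1357, 1342 and 1281 in XYF, 1246, 1256, 1351 and 1305 in XXM, and 1233 and 1057 in XYM. The lowest array of all was an XYM array, and both XYM arrays lay below all XYF and all XXM arrays. XYM minus XYF was -0.22 in log2 (95% interval -0.43 to -0.01, limma adjusted p = 0.982), -0.11 without XYM array 9 and -0.33 without XYM array 1. XYF minus XXF was 0.10 (-0.09 to 0.28). The interaction was -0.27 (-0.55 to 0.0034, limma adjusted p = 1.00), with XY minus XX at -0.04 and male minus female at -0.08.

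Sirt1, the deacetylase that activates Aire, ran from 1054 to 1245, and its XY minus XX difference was 0.03 (-0.10 to 0.16, limma adjusted p = 1.00). Chd4, the remodelling ATPase of the NuRD complex, ran from 2694 to 3048, with a difference of -0.03 (-0.15 to 0.09). Its standard error of 0.05 was the smallest of the 9, so its interval is the tightest measured here. Top2b, the topoisomerase whose DNA breaks accompany Aire-driven transcription, ran from 1527 to 1889 with a difference of -0.08 (-0.23 to 0.08). Its 3 lowest arrays, at 1527, 1543 and 1580.5, were all in the set 9 to 12.

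Prkdc, the catalytic subunit of the DNA-dependent protein kinase, followed the array sets and not the genotypes. It read 833 to 866 on arrays 1 to 4, 866 to 985 on arrays 5 to 8 and 707 to 796 on arrays 9 to 12, so the last set lay below all others. Prkdc was the 1 member of 9 whose last set did not overlap the rest, and 10.2% of all probe sets did the same. Its XY minus XX log2 difference was -0.07 (-0.26 to 0.13) and male minus female -0.05 (-0.25 to 0.15), with limma adjusted p of 1.00 and 0.985.

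**Figure D2:**
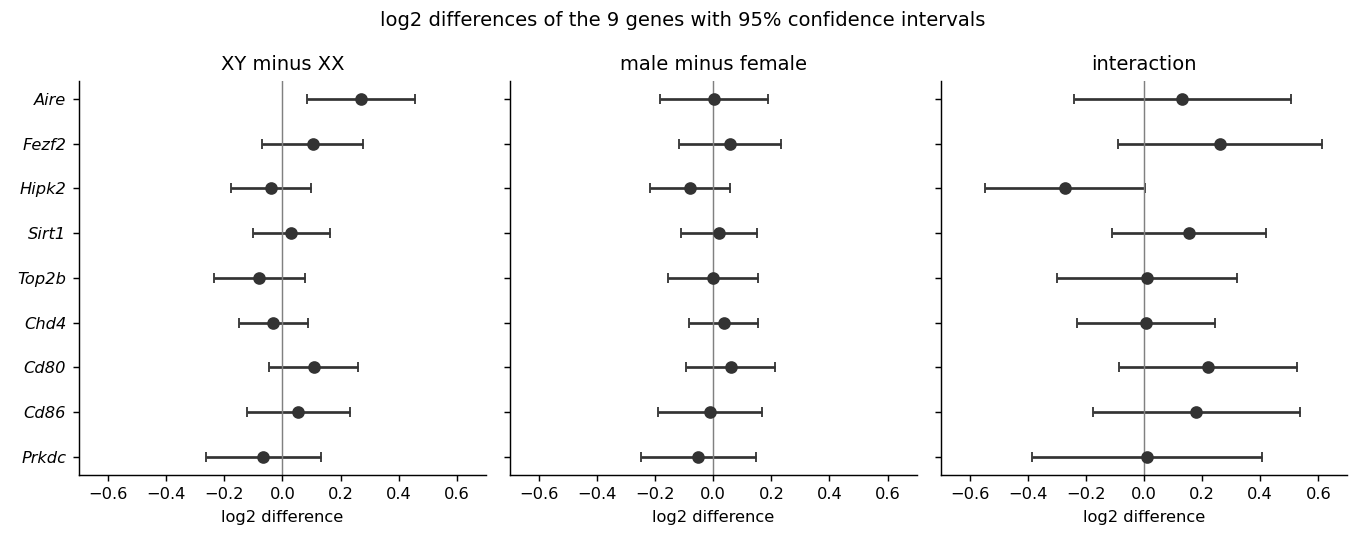
log2 differences (horizontal axes) of the 9 members with 95% confidence intervals from the limma fit of all 12 arrays, for XY minus XX, male minus female and their interaction. Aire under XY minus XX, at 0.27 (0.08 to 0.46), is the only interval drawn that leaves out 0.

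Counted over the list, no member passed the adjusted threshold of 0.05 in any contrast. For XY minus XX, 0.0366% of probe sets passed it (13 of 35556), and for male minus female 0.00281% (1 probe set). At an unadjusted p under 0.05, 1 of the 9 members was called for XY minus XX, namely Aire, against a background of 2.55%, or 1.26% for probe sets higher in XY. None was called for male minus female (background 3.03%), for the interaction (1.54%), for XYF minus XXF (0.951%) or for XXM minus XXF (1.45%). Aire was the 1 member called for XYM minus XXM (background 3.41%) and by the F test over the 4 genotypes (1.99%), and Hipk2 the 1 called for XYM minus XYF (3.14%). These single-genotype calls depended on the arrays and the model. That of Aire for XYM minus XXM held in 21 of 22 alternatives and was lost without XYM array 1, and that of Hipk2 held in 10 of 22. Aire for XYF minus XXF was called in 2 of 22, with array sets as a block at an unchanged 0.20 and without XYF array 8.

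By ranges, 0 of 9 members kept XY and XX arrays fully apart, as 0.166% of probe sets did. XYM and XXM arrays did not overlap for 4 of 9, with Aire, Fezf2 and Cd80 higher and Hipk2 lower in XYM, beside 8.59% of all probe sets. The 2 XYM arrays are the smallest group. Over the 9 members the XY minus XX differences ran from -0.08 to 0.27 with a median of 0.03, and the male minus female differences from -0.08 to 0.06 with a median of 0.00, where the median of all 19938 genes was 0.01 in both.

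Levels of Aire were then set against those of the other 8 members over the 12 arrays. Fezf2 ran with it most closely, with Pearson r = 0.78 (permutation p = 0.00277) and Spearman rho = 0.64 (permutation p = 0.0303). Leaving out the 2 arrays farthest from the median of Aire, XYF array 4 and XXM array 6, r was 0.62. With genotype means removed it was 0.86, and with the means of the array sets removed it was 0.63. The limma regression of all probe sets on Aire gave Fezf2 an adjusted p of 0.310.

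Cd80 came next, with r = 0.71 (permutation p = 0.00795) and rho = 0.61 (permutation p = 0.0401). Without those 2 arrays r was 0.56, with genotype means removed 0.67 and with set means removed 0.66, and the limma adjusted p was 0.429. Its second probe set gave r = 0.63. Neither relation passed the correction over all probe sets, of which 8.62% had an unadjusted p under 0.05 and 0.00281% (1 probe set, Mmrn2) an adjusted one. Fezf2 ranked 198th and Cd80 390th by r among 14448 genes with a mean intensity of at least 200, whose middle 90% lay between -0.54 and 0.64.

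**Figure D3:**
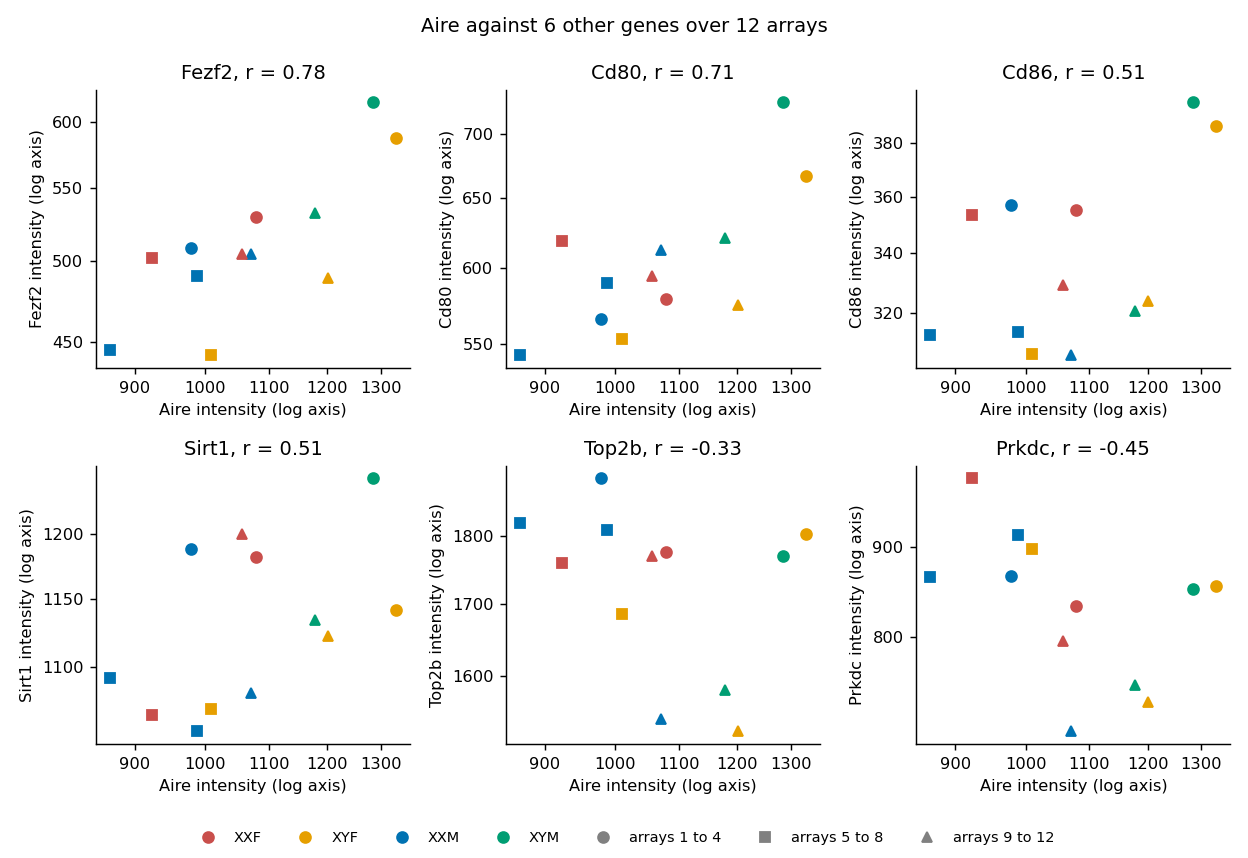
Intensity of Aire (horizontal, log axis) against Fezf2, Cd80, Cd86, Sirt1, Top2b and Prkdc (vertical, log axes) with 1 point per array; colors give the genotype and symbols the array set. XYM array 1 and XYF array 4 lie at the upper right for Fezf2, Cd80 and Cd86, and the triangles of arrays 9 to 12 lie low for Top2b and Prkdc.

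The other 6 relations with Aire were weaker. Cd86 gave r = 0.51 (permutation p = 0.0918, rho = 0.41), and 0.26 without the 2 arrays. Sirt1 gave r = 0.51 (permutation p = 0.0955, rho = 0.48) but -0.15 once the set means were removed. Prkdc gave r = -0.45 (permutation p = 0.141) and rho = -0.60 (permutation p = 0.0426). Its r was -0.61 without the 2 arrays and -0.02 with set means removed. For Hipk2 r was -0.18, for Chd4 -0.24 and for Top2b -0.33, with permutation p of 0.594, 0.450 and 0.290 and rho of -0.04, -0.20 and -0.41. The nuclear partners Top2b and Chd4 thus had r below 0 with Aire, and for Chd4 r was -0.74 with set means removed and 0.03 with genotype means removed.

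Among the 36 pairs of members, the highest r was between Fezf2 and Cd80, at 0.91 (rho = 0.77). It was 0.73 without the 2 arrays farthest for Fezf2 and 0.96 with set means removed. Fezf2 and Cd86 gave 0.83 (rho = 0.70), 0.55 and 0.75 by the same measures. Among the 5 nuclear partners Top2b ran with Prkdc at 0.74 (0.50 with set means removed) and with Chd4 at 0.70 (0.55), whereas their other pairs lay between -0.31 and 0.495. These pairs are descriptions with n = 12 arrays that share preparation and normalization, and no test was made of them.

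The 10 genes whose levels were most like Aire over the 12 arrays, by Pearson r, were Adam15 (0.97), Col4a1 (0.96), Mmrn2 (0.96), Nrp2 (0.96), Galnt17 (0.95), Stap2 (0.94), Itpripl2 (0.93), Tnfrsf11a (0.93), Nfkb2 (0.93) and Mcam (0.92). Tnfrsf11a encodes RANK and Nfkb2 the p100 precursor of the alternative NF-kappaB pathway, and both also stand on the list of inducers of Aire used below. Col4a1 is a basement membrane collagen, and Mmrn2 and Mcam are known from blood vessels. Mmrn2 was the 1 gene past the threshold (limma adjusted p = 0.0354 in the regression on Aire). The 5 genes with the lowest r were Mcoln3 (-0.92), Klhl11 (-0.88), Grhpr (-0.87), Ccr9 (-0.87) and Parvg (-0.87), and Ccr9 is a chemokine receptor of thymocytes.

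Genes upstream of Aire were read from a list made mostly of RANK, CD40 and lymphotoxin signalling and NF-kappaB genes. The list also held Irf4, Irf8 and Tnfrsf11b, and the name inducers of Aire stands for the list, not for each gene in it. Of its 14 measured genes, 11 had an XY minus XX difference above 0, with a median of 0.09 in log2, and 5 had an unadjusted limma p under 0.05 and 0 an adjusted one. Over all 19938 genes 53.1% were above 0 for XY minus XX, with 251 higher and 165 lower at that unadjusted p, and 53.0% were above 0 for male minus female, with 302 higher and 101 lower. The 3 with the lowest p for XY minus XX were Tnfrsf11a at 0.19, Nfkb2 at 0.18 and Cd40, the receptor of CD40 ligand, at 0.16. Their r with Aire was 0.93, 0.93 and 0.77, and the list's median r was 0.55. By gonadal sex 7 of the 14 were above 0, with a median of -0.00492, and the lowest p was that of Lta, a lymphotoxin chain, at 0.11, followed by Irf4 at -0.11.

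The further nuclear proteins known to act with Aire had mostly negative differences. Of 24 measured, 5 had an XY minus XX difference above 0, beside 53.1% of all genes. The median of the 24 was -0.05, and 0 passed an unadjusted p of 0.05 (over all genes 251 higher and 165 lower). Ccnt1, the cyclin of the elongation kinase P-TEFb, was at -0.14, Top1, a topoisomerase, at -0.16, and Atf7ip, which binds the silencer MBD1, at -0.10. With array sets as a block 2 of the 24 passed that p, Ccnt1 and Parp1, both lower. Of all 19938 genes, 917 were higher and 417 lower at that p with the block. The median r of the 24 with Aire was -0.28. In male minus female 6 of 24 were above 0, beside 53.0% of all genes, with a median of -0.02, led by Top2a at -0.08.

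Of the 11 other subunits of the Chd4 complex NuRD, 0 had an XY minus XX difference above 0, beside 53.1% of all genes. The median of the 11 was -0.06, and 0 passed an unadjusted p of 0.05 (over all genes 251 higher and 165 lower). The deacetylase Hdac2 at -0.15, Gatad2b at -0.11 and the histone chaperone Rbbp4 at -0.12 had the lowest p. With array sets as a block Hdac2 and Gatad2b, both lower, passed an unadjusted p of 0.05. Of all 19938 genes 417 were lower and 917 higher at that p with the block. In male minus female 2 of 11 were above 0, beside 53.0% of all genes, with Mbd3 at -0.09 and Mta3 at -0.07 leading. The end joining partners of Prkdc had 3 of 8 above 0 for XY minus XX, with a median of -0.03, and 2 of 8 for male minus female, with a median of -0.06. Lig4, the ligase of that pathway, was at -0.14, the polymerase Poll at 0.08 and Nhej1 at -0.05, and Xrcc4 led for gonadal sex at -0.09.

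Receptors and relatives of Cd80 and Cd86 lay on both sides of 0. For XY minus XX 4 of 7 were above 0, beside 53.1% of all genes, with a median of 0.0032. Of the 7, 0 had an unadjusted p under 0.05, against 2, both higher, with array sets as a block. Of all 19938 genes the block gave 917 higher and 417 lower at that p. The ligands stood highest, with Pdcd1lg2 at 0.12, Cd274 at 0.13 and Icosl at 0.12. For male minus female 0 of 7 were above 0, beside 53.0% of all genes, with a median of -0.0079. Pdcd1lg2 at -0.10 and Icos at -0.13 led.

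Tissue antigens known to depend on Aire also lay on both sides of 0. For XY minus XX 4 of the 8 measured were above 0, with a median of 0.02 and 0 at an unadjusted p under 0.05. Csn2, a milk casein, was at 0.27, with r with Aire of 0.69, and S100a8 at 0.09 and Tff3 at 0.06 followed. By gonadal sex 8 of 8 were above 0, beside 53.0% of all genes, with a median of 0.09, none at an unadjusted p under 0.05, and those with the lowest p were Pcp4 at 0.10 and Rbp3 at 0.11. Only 2 of the 8 had a mean above the olfactory gauge of background. Antigens of Fezf2 gave 5 of 6 above 0 for XY minus XX (median 0.05) and 5 of 6 for male minus female (median 0.11), with 0 of 6 above that gauge. With array sets as a block 1 of these 6 for XY minus XX and 3 for male minus female, all higher, had an unadjusted p under 0.05, and 1 of the 8 antigens of Aire, higher in males, did. Over all 19938 genes the block gave 1738 higher and 479 lower in males at that p, and 917 higher and 417 lower in XY. Sult1c2 at 0.12, Ttr, the thyroxine carrier, at 0.13 and Fabp9 at 0.06 had the lowest p for XY minus XX, and Apob at 0.12 and Ttr at 0.18 for male minus female.

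**Figure D4:**
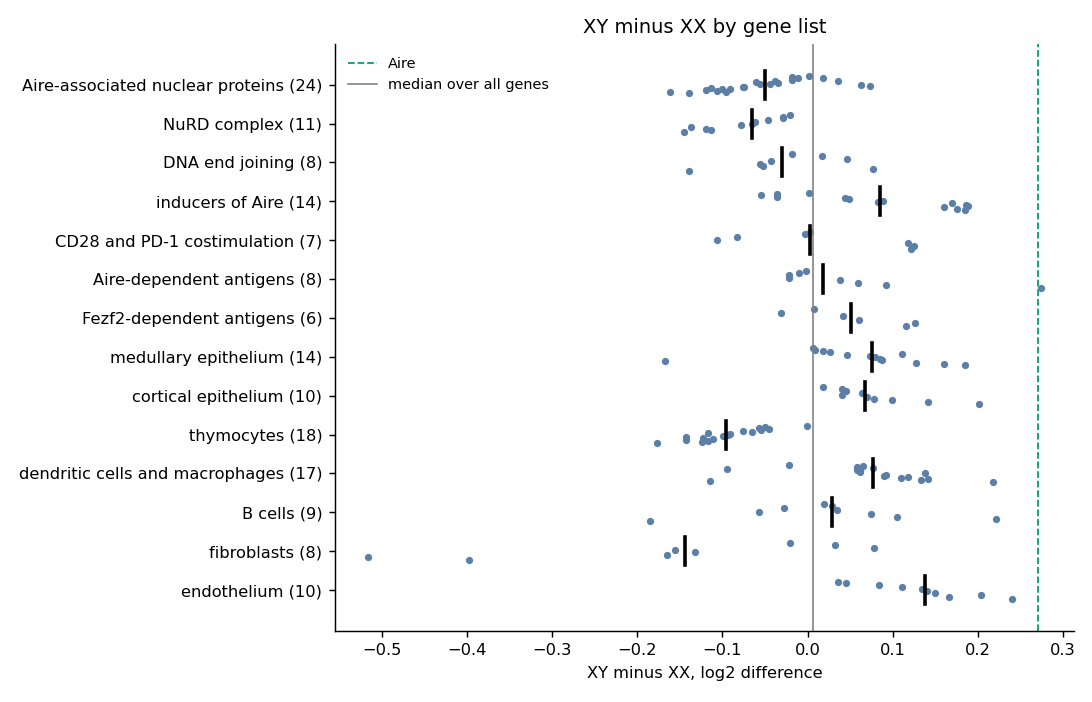
XY minus XX log2 difference (horizontal axis) of every measured gene of each list, with 1 point per gene, the number of genes in parentheses and a black bar at the median; the dashed line is Aire at 0.27 and the grey line the median of all genes at 0.01. Inducers of Aire, epithelial, dendritic and endothelial genes lie mostly right of the grey line, and nuclear partners, NuRD and thymocyte genes mostly left.

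Marker genes of the cells in the tissue are given beside Aire for the same XY minus XX comparison. Medullary markers were above 0 for 13 of 14 (median 0.08). Of these, 2 had an unadjusted p under 0.05, Tnfrsf11a (RANK) and Cd40, and both were already counted among the inducers of Aire. Cortical markers were above 0 for 10 of 10 (median 0.07, 1 at that p, Cxcl12 at 0.20). The summed intensities of both lists overlapped between XX and XY arrays. They were 9078 to 10319.7 against 9587 to 10373 for medullary and 26638 to 32439 against 29391 to 32964 for cortical markers. Endothelial genes were above 0 for 10 of 10, beside 53.1% of all genes (median 0.14, sums of 9607 to 12038 in XX and 10776 to 14078 in XY), with Cldn5, a tight junction protein of vessels, at 0.24. Dendritic cell and macrophage genes were above 0 for 14 of 17 (median 0.08, sums of 8545 to 9649 against 8452 to 10371), with Flt3, the growth factor receptor of dendritic cells, at 0.22. Those below 0 were Itgam at -0.11, C1qb at -0.10 and Csf1r at -0.02. Thymocyte genes were above 0 for 0 of 18 (median -0.10), with Rag2 at -0.18. Their sums of 60081 to 66323 in XX and 57644 to 60069 in XY lay apart only by a narrow margin. With array sets as a block, where 917 genes were higher and 417 lower at an unadjusted p under 0.05, thymocyte genes at that p went from 1 to 5, all lower, cortical markers from 1 to 3, dendritic cell and macrophage genes from 1 to 3, of which 1 was lower, and endothelial genes from 1 to 0. No gene of these lists passed the adjusted threshold, and the lowest mean intensity was 599 among thymocyte genes (Ptcra) and 556 among endothelial genes (Robo4). Of the dendritic cell and macrophage genes 12 of 17 had a mean above the olfactory gauge of background, and Flt3, at 264, did not.

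Set against the mean log2 level of each marker list, the XY minus XX difference of Aire was 0.21 relative to medullary, 0.19 to cortical, 0.14 to endothelial, 0.20 to dendritic and macrophage and 0.36 to thymocyte genes. Its size thus ranged from 0.14 to 0.36 according to the list it was set against, and no standard error was computed for these values. For Fezf2 the same values were 0.04, 0.02, -0.03, 0.03 and 0.20, for Cd80 0.05, 0.03, -0.02, 0.04 and 0.20, and for Cd86 -0.0054, -0.02, -0.08, -0.01 and 0.15. The part of these cells in the difference of Aire was not tested.

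**Figure D5:**
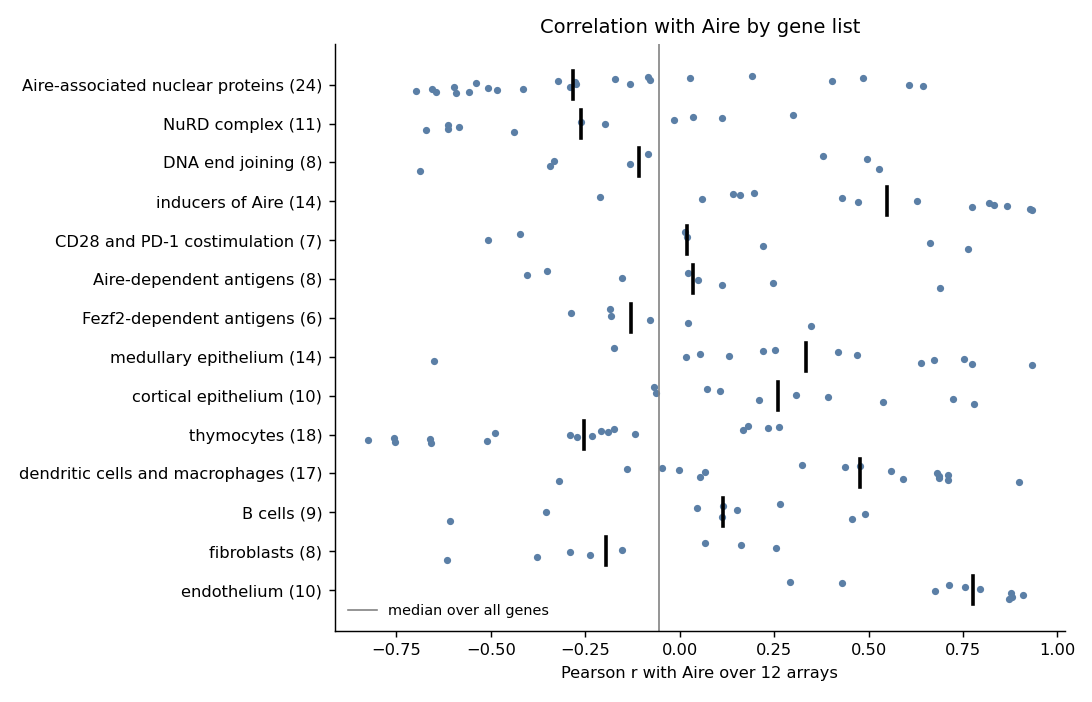
Pearson r with Aire over 12 arrays (horizontal axis) for every measured gene of each list, with 1 point per gene and a black bar at the median; the grey line is the median of all genes at -0.06. Endothelial genes have the highest median, 0.78, then inducers of Aire, 0.55, and dendritic cell and macrophage genes, 0.48.

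The same lists differed in how their genes ran with Aire. The median r was 0.78 over the 10 endothelial genes, 0.55 over the inducers, 0.48 over dendritic cell and macrophage genes, 0.34 over medullary and 0.26 over cortical markers, and -0.25 over thymocyte genes, beside -0.06 over all genes. Tie1, an endothelial receptor, reached 0.91. For the mean log2 level of each list, r with Aire was 0.90 for inducers and 0.85 for endothelial genes. It was 0.81 for dendritic cell and macrophage, 0.80 for medullary, 0.35 for cortical and -0.49 for thymocyte genes. The XY and XX genotypes also differed in 9 genes past the adjusted threshold, all on the sex chromosomes. Besides Xist and Kdm6a, lower in XY, and the Y genes Kdm5d, Uty and Eif2s3y, these were the X genes Tmsb4x (0.64), Hccs (0.68), Msl3 (0.70) and Tlr7 (0.78), all higher in XY and named here after their values were seen. Their part in the values of Aire and that of the rest of the sex chromosomes cannot be told apart in this design.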

How the data were processed

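Thymic epithelium/stroma of day 7 FCG pups was measured on 12 arrays. After 5 rounds of thymocyte removal and washing, the remaining tissue was snap frozen. The deposited table holds linear intensity values of 35556 probe sets, made by the authors with PLIER in Affymetrix Expression Console 1.1 per the submitters' processing notes, while the methods describe RMA and quantile normalization; the values were used as deposited. Of the probe sets, 21789 carried 1 symbol, 1621 several and 12146 none, and no gene was named from the last 2 kinds. Values were log2 transformed and fitted with limma 3.58.1 (lmFit and eBayes, R 4.3.3) in a model of the 4 genotypes, with Benjamini-Hochberg adjustment over all probe sets and a threshold of 0.05. Permutation tests were two-sided, exact between groups and with 100000 resamples for correlations (8 with Aire, of 36 pairs of members). Levels are mean ± SD on the linear scale. Precision is limited by the number of arrays. The code was tested on simulated data, and figures were drawn with matplotlib 3.10.9.

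The members and gene lists were chosen with earlier results of these data known. Named besides members were the 10 genes with the highest and the 5 with the lowest r with Aire at a mean intensity of at least 200, and up to 3 genes per list with the lowest p for XY minus XX and up to 2 for male minus female. Alternatives covered normalization, an offset of 16, a filter at 200, symbols, model, moderation, array weights, array sets as a block, probe set choice and leaving out arrays.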

Additional observations from a re-analysis of the deposited data

Results flagged for a closer look

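In 45 groups of 4 to 7 arrays examined for the members, 2 held an array far from the rest by Dixon's gap test. Chance alone flags about 1 group in 20, and the groups share arrays. Top2b on XXM array 10, at 1542.5, was the lowest of the 7 XX arrays, which otherwise ran up to 1889, and that array belongs to the set 9 to 12. Cd86 on XXM array 2, at 357, stood above the other XXM arrays, whose group had a median of 314, and that array belongs to the set 1 to 4, which had the highest mean of Cd86 at 374 ± 20.5 (SD, n = 4).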

How the results depend on the processing

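No member passed the adjusted threshold under any alternative. The XY minus XX log2 difference of Aire stayed between 0.22 and 0.33 in all 23 alternatives, with unadjusted limma p from 0.00205 to 0.0382 and adjusted p from 0.653 to 1.00. The differences that changed sign all had an unadjusted p above the threshold and lay near 0. Male minus female of Aire was -0.0092 in the additive model, -0.015 with array sets as a block and -0.052 to 0.048 when 1 array was left out. That of Top2b was 0.021 after renewed quantile normalization, 0.00065 with array weights, 0.0021 with the block and -0.042 to 0.039 leaving out 1 array, and that of Cd80 was -0.0011 as the mean of its probe sets. Leaving out 1 array, Cd86 ran from -0.088 to 0.064 and Sirt1 from -0.014 to 0.053 for male minus female, and Cd86 from -0.021 to 0.13, Hipk2 from -0.095 to 0.016 and Sirt1 from -0.0031 to 0.064 for XY minus XX. Without arrays 9 to 12, an alternative chosen after seeing the data, Hipk2 was 0.0042 for XY minus XX, and Top2b 0.040 and Cd86 0.043 for male minus female. With genotype in the regression r with Aire was 0.031 for Hipk2 and 0.032 for Chd4, and with the block 0.025 for Hipk2 and -0.15 for Sirt1.

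The 13 probe sets called for XY minus XX became 8 under the methods' analysis of variance without moderation and 8 to 14 when 1 array was left out. The 1 called for male minus female became 2 with trend and robust moderation, 1 to 4 leaving out 1 array and 6 without arrays 9 to 12. The 1 called in the regression on Aire became 2 after renewed quantile normalization, 9 with the offset, 0 with genotype, 0 with the block, 0 without the 2 farthest arrays and 0 to 6 leaving out 1 array. With the block, genes at an unadjusted p under 0.05 for XY minus XX went from 251 higher and 165 lower to 917 and 417. For male minus female the counts went from 302 higher and 101 lower to 1738 and 479. The cause was not tested. The genotypes share no replicate numbers, and arrays were compared within sets of 4 by the block and by the differences within each set. With 2 XYM arrays, leaving 1 out assumes that the other varies like the rest. Signal near background limits Cd86, most antigens and some B cell, dendritic cell and medullary marker genes.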

Other observations

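B cells and fibroblasts share the stroma with medullary epithelium, and their markers were read in the same way. Of 9 measured B cell genes, 6 were above 0 for XY minus XX, beside 53.1% of all genes (median 0.03, median r with Aire 0.11). Those with the lowest p were Cd79b, a chain of the B cell receptor complex, at -0.19 (r with Aire -0.61), Cd79a at 0.22 and Vpreb3 at 0.11. For male minus female 7 of the 9 were above 0, beside 53.0% of all genes, with a median of 0.11. Ms4a1, which encodes CD20, at 0.25 and Fcrla at 0.16 led, neither past the adjusted threshold. Only 5 of the 9 B cell genes had a mean above the olfactory gauge of background. The means of Ms4a1, Fcrla and Cd79a were 148, 178 and 117, below it. Of 8 fibroblast genes, 2 were above 0 for XY minus XX, beside the same 53.1%, with a median of -0.14 and a median r with Aire of -0.20. The matrix genes Dcn at -0.40, Dpt at -0.52 and Col3a1 at -0.17 led.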
